A study of Mus musculus with 48 samples.

Results

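Cohesin was mapped through its SMC3 subunit in mouse embryonic stem cells that carried the CTCF mutant R448Q, and its peaks were set against those of cells that carried wild-type (WT) CTCF. The R448Q list held 153647 SMC3 peaks and the WT list 71962, of 963421 peaks in all the SMC3 lists of the series. All rows of both lists were used, with none filtered. Each list pools 2 samples, so 4 of 48 samples stand behind the comparison. A WT peak was called kept where an R448Q peak overlapped it by 1 bp or more and lost otherwise, and an R448Q peak without a WT peak was called gained. The R448Q group and the WT group were both E14Tg2a cells of strain 129/Ola. In both, endogenous CTCF carries an auxin degron, and both were given 500 µM indole-3-acetic acid to degrade it and 1 µg/ml doxycycline to switch on a Ctcf transgene, for 2 days. The transgene was the R448Q mutant in the R448Q cells and WT in the WT cells, and its product is found through a FLAG antibody. Each genotype is 1 engineered line grown with leukemia inhibitory factor and inhibitors of GSK3 and MEK. Endogenous CTCF left after treatment was not measured here. For reference there were FLAG lists of both groups and CTCF antibody lists of WT cells with the same treatment and without any. The FLAG lists held 19403 peaks in R448Q and 15392 in WT. The antibody lists were far longer, with 116973 peaks in treated and 175815 in untreated WT cells. A site without a FLAG peak is thus one where none was called, and transgene binding below the call was not measured. Chromatin was fixed with EGS and formaldehyde and tagged by a transposase on the beads, an assay called ChIPmentation.

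Cohesin is a ring-shaped complex of SMC1A, SMC3, RAD21 and a STAG subunit that extrudes loops of chromatin. CTCF binds DNA through a row of zinc fingers and halts cohesin, so most strong cohesin peaks of mammalian cells lie on CTCF sites. Cohesin is also found away from CTCF, among other places at active promoters and enhancers, where it is loaded or travels. In R448Q an arginine of the zinc-finger domain is replaced by glutamine.

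The core of the CTCF motif can be written CC-NNN-AG-NN-GGC, where N is any base, and it may lie on either strand. The sequences below are the 250 bases upstream of the annotated start of 7 genes, from RefSeq (GRCm38.p6, the assembly that mm10 names), 5′ to 3′ on the gene's strand. They were chosen after values were seen, to show what kept, lost and gained cohesin looked like at promoters with and without FLAG. The printed promoters with FLAG all hold a match, so they do not stand for their sets. In the promoter windows counted further below, 267 of 526 kept windows with FLAG in both groups held the letters. So did 46 of 123 kept and 1 of 5 lost windows with WT FLAG only. Of gained windows with R448Q FLAG only, 14 of 51 held them. Capitals mark matches to these core letters on the printed strand or its complement. Pdzd9, a PDZ-domain gene (chr7:120670251-120670500, minus strand), and Slc36a1, an amino acid transporter gene (chr11:55204090-55204339, plus strand), kept SMC3 and had FLAG in both groups.
Pdzd9: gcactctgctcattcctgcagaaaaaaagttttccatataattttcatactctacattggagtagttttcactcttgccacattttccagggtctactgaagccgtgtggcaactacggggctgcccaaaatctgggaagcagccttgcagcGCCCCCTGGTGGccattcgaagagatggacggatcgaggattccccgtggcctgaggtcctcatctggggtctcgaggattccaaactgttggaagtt
Slc36a1: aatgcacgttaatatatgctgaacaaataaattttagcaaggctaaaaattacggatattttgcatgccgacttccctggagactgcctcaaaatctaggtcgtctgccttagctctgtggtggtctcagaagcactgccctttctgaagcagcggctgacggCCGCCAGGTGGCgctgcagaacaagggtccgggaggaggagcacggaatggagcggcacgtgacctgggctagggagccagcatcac
At Grik4, a kainate receptor subunit gene (chr9:42944372-42944621, minus strand), SMC3 was kept while FLAG was in the WT list and not in the R448Q list. At Dapk2, a death-associated protein kinase gene (chr9:66157976-66158225, plus strand), both SMC3 and FLAG were in the WT list and not in the R448Q list.
Grik4: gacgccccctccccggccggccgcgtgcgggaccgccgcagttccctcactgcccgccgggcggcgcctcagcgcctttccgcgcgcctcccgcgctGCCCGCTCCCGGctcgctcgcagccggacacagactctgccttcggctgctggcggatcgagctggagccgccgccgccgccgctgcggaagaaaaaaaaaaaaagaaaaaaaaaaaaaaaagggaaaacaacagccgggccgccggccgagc
Dapk2: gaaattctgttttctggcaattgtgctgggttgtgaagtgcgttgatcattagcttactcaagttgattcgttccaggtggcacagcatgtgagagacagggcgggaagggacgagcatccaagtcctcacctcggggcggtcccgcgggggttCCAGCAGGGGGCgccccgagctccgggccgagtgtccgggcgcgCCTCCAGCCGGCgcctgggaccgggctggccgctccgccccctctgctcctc
Pwwp3a, a PWWP-domain gene (chr10:80226348-80226597, plus strand), and Kansl1, a scaffold gene of a histone acetyltransferase complex (chr11:104442292-104442541, minus strand), had gained SMC3 together with an R448Q FLAG peak and no WT FLAG peak.
Pwwp3a: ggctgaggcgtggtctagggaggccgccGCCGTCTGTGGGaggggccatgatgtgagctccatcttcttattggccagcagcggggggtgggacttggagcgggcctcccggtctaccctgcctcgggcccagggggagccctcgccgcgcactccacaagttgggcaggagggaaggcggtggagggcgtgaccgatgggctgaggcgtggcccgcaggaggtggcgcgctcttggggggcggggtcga
Kansl1: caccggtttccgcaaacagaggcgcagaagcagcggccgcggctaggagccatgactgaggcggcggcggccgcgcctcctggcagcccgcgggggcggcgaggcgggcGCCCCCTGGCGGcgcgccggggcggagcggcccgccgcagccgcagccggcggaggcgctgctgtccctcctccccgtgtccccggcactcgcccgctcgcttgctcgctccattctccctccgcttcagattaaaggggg
Ssr3, a gene of the translocon-associated complex (chr3:65392554-65392803, minus strand), had the strongest gained SMC3 peak among promoter windows without any FLAG or CTCF antibody peak, and these bases hold no match.
Ssr3: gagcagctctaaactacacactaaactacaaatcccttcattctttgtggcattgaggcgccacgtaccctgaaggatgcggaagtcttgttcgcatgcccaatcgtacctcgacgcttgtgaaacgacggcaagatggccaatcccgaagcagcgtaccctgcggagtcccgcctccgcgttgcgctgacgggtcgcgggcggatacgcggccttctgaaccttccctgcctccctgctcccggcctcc
The peak values are scores of the authors' peak caller whose kind is not given in the sources used here, and they were ranked within a list only. At Slc36a1 the SMC3 value was 39.2 in R448Q and 19.2 in WT, and the FLAG value was 14.6 in R448Q and 11.8 in WT. At Grik4 the SMC3 value was 10.4 in R448Q and 12.1 in WT. At Dapk2 the WT SMC3 value was 3.45, against a median of 3.16 over the whole WT SMC3 list, with a WT FLAG value of 3.73. The gained peaks had R448Q values of 7.75 at Pwwp3a, 5.92 at Kansl1 and 11.3 at Ssr3.

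Every sample value below is a pooled list, so there is 1 value per group, no spread between replicates and no p-value. The intervals in parentheses are 95% Wilson intervals over peaks and cover counting error only. Depth per library is unknown. The R448Q peaks covered 66.1 Mb with a median width of 280 bp, and the WT peaks covered 22.4 Mb with a median width of 222 bp. Peak names in the fourth column carry a library tag. Both SMC3 lists are tagged b1_b1, whose meaning is not given in the sources used here. The R448Q SMC3 names give the codes CMP124 and CMP125 and the WT SMC3 names CMP131 and CMP135. The WT FLAG names hold the same 2 codes as WT SMC3, whereas the R448Q FLAG names hold CMP125 and CMP283, so at most 1 of the 2 codes is shared between FLAG and SMC3 in R448Q. The codes cannot tell whether FLAG and SMC3 came from the same cells. Lists of the other mutants are used below for comparison. Among them the Q418R SMC3 list has as many rows as the Q418R FLAG list (42030 each), though the lists share no identical interval and 30.9% of the SMC3 peaks overlap a FLAG peak. Why the numbers of rows are equal was not tested.

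The R448Q lists stood apart from the WT lists on 4 chromosomes. R448Q cells had 5.22 times as many SMC3 peaks as WT cells on chromosome 1 (17391 against 3334), 5.06 times on chromosome 3 (13132 against 2594), 4.75 times on chromosome 8 (12742 against 2681) and 3.59 times on chromosome 11 (12423 against 3458). On the other 15 autosomes the ratio lay between 1.29 and 1.92, and on X it was 3.58 from few peaks (824 against 230). FLAG peaks followed the same 4 chromosomes: R448Q had 2.50 times as many as WT on chromosome 1, 2.17 times on chromosome 3, 2.25 times on chromosome 8 and 1.61 times on chromosome 11, against 0.866 to 1.25 times on the other 15 autosomes. The strongest decile of each SMC3 list, taken within that list, showed it too, with 4776 R448Q and 1511 WT peaks on the 4 chromosomes (ratio 3.16) and 10431 R448Q and 5627 WT peaks on the other autosomes (ratio 1.85). Per treated CTCF antibody peak, the R448Q list had between 1.48 and 2.68 SMC3 peaks on these 4 chromosomes, and the WT list had between 0.411 and 0.530, the lowest of its autosomes. The WT list in turn was densest on chromosome 6, with 1.20 SMC3 peaks per treated CTCF antibody peak against 0.747 on chromosome 5, its next. In the R448Q list chromosome 6 had 1.55, above the 1.48 of chromosome 11.

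**Figure D1:**
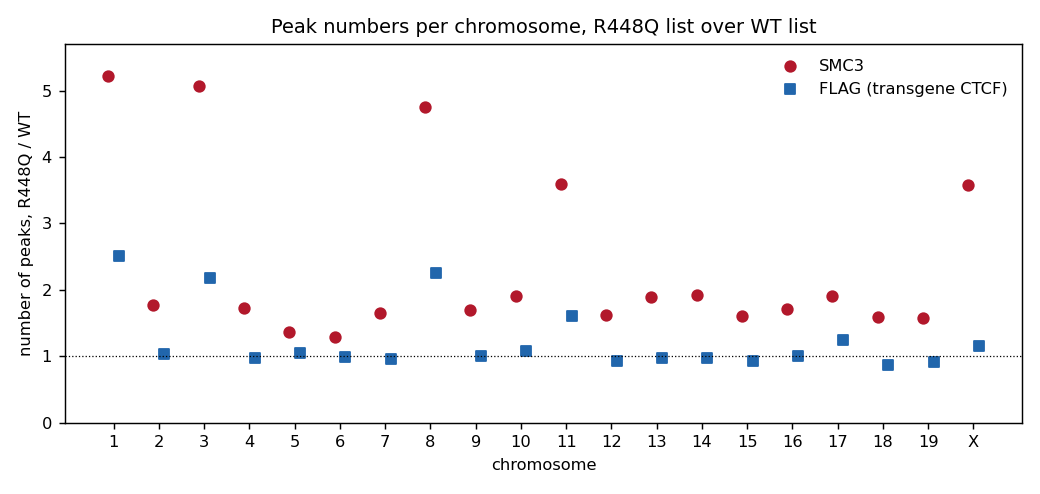
Number of peaks in the R448Q list divided by the number in the WT list for each chromosome, for SMC3 (red circles) and FLAG (blue squares), with 1 pooled list per group. Chromosomes 1, 3, 8 and 11 lie between 3.59 and 5.22 for SMC3 and between 1.61 and 2.50 for FLAG, above the other autosomes in both.

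The excess ran along whole chromosomes with 1 break. Of the windows of 10 Mb with at least 20 WT SMC3 peaks, all 48 on chromosomes 1, 3 and 8 had an R448Q to WT ratio above 3, as had 2 of 188 on the other autosomes. On chromosome 11 the windows between 40 and 80 Mb had ratios of 1.69 to 2.08, while the other 9 windows had 3.58 to 6.43. One of the exceptions elsewhere was distal chromosome 17, from 80 to 90 Mb, with 859 R448Q and 45 WT SMC3 peaks and 116 R448Q and 36 WT FLAG peaks. There the other mutants also had many SMC3 peaks, from 259 in Q418R to 773 in R377H, except H455R with 31, so the WT and H455R lists are the low ones there. In the opposite direction, chromosome 5 from 150 to 160 Mb had 144 R448Q and 324 WT SMC3 peaks. The other mutants had from 49 (S354F and Q418R) to 105 (R377H), so the WT list is the high one there. Chromosome 18 from 0 to 10 Mb also had fewer peaks in R448Q, with 105 R448Q and 152 WT SMC3 peaks. FLAG peaks there were 31 in R448Q and 49 in WT. The 4 chromosomes hold 36.2% of the R448Q list and 16.8% of the WT list. Genotype, cell line and library cannot be told apart here, since each group is 1 line and 1 list, so the main results below are also given without chromosomes 1, 3, 8 and 11, a split chosen after seeing these numbers.

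R448Q cells retained most WT cohesin peaks, and nearly all that lay on WT FLAG sites. Of 71962 WT SMC3 peaks, 56010 were kept, 77.8% (77.5 to 78.1), and 15952 or 22.2% were lost. Peaks were then split by position into those at a WT FLAG peak, those at a CTCF antibody peak of treated or untreated WT cells but no WT FLAG peak, and those away from both. At WT FLAG peaks 12110 of 12363 were kept, 98.0% (97.7 to 98.2). At other CTCF antibody peaks 17714 of 22226 were kept, 79.7% (79.2 to 80.2), and away from both 26186 of 37373, 70.1% (69.6 to 70.5). Kept peaks were therefore the rule in every class, and losses fell mostly outside CTCF sites: 11187 of the 15952 lost peaks lay away from both (70.1%), 4512 at other CTCF antibody peaks (28.3%) and 253 at WT FLAG peaks (1.59%). The kept share was 27.9 percentage points higher at WT FLAG peaks than away from both (Newcombe 95% interval 27.4 to 28.4, counting error only). Without chromosomes 1, 3, 8 and 11, 97.5% were kept at WT FLAG peaks, 77.3% at other CTCF antibody peaks and 66.8% away from both. On those 4 chromosomes the shares were 99.5%, 92.0% and 88.2%.

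Gained cohesin was mostly away from CTCF. Of 153647 R448Q SMC3 peaks, 104596 had no WT peak, 68.1% (67.8 to 68.3). At WT FLAG peaks only 1097 of 13055 were gained, 8.40% (7.94 to 8.89). At other CTCF antibody peaks 25510 of 41366 were gained, 61.7% (61.2 to 62.1), and away from both 77989 of 99226, 78.6% (78.3 to 78.9). The gained set was thus 74.6% peaks away from both, 24.4% at other CTCF antibody peaks and 1.05% at WT FLAG peaks. An R448Q FLAG peak overlapped 2.67% of it. In numbers of peaks, R448Q had 1.06 times as many as WT at WT FLAG peaks, 1.86 times at other CTCF antibody peaks and 2.66 times away from both. On chromosomes 1, 3, 8 and 11 these ratios were 1.11, 3.54 and 7.06, and on the other chromosomes 1.04, 1.54 and 1.87. The list excess was small at WT FLAG sites in both sets of chromosomes, a class with little room for more peaks. Of 15392 WT FLAG sites, 12503 already had WT SMC3, whereas the class away from both has no such limit. The ratios of these classes are therefore not on a like footing. Without the 4 chromosomes 59.5% of R448Q peaks were gained, with 7.37% at WT FLAG peaks, 54.6% at other CTCF antibody peaks and 70.6% away from both.

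**Figure D2:**
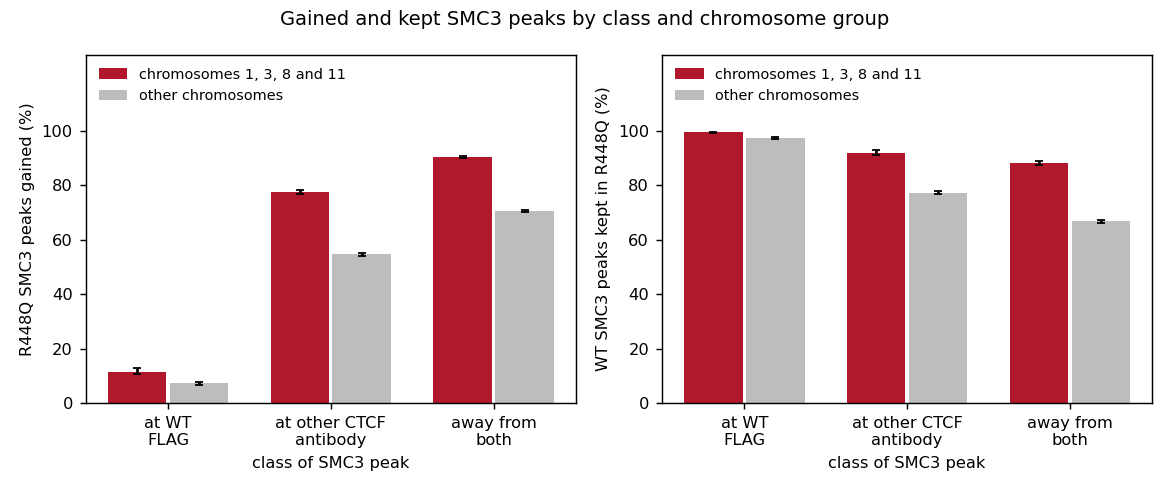
Share of R448Q SMC3 peaks that were gained (left) and of WT SMC3 peaks that were kept (right), in percent, by class of peak, on chromosomes 1, 3, 8 and 11 (red) and on the other chromosomes (grey); error bars are 95% Wilson intervals over peaks of 1 pooled list per group. Both shares are higher on the 4 chromosomes in every class, and the order of the classes is the same in both sets.

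The count of gained peaks depends on list length and on how overlap is counted. With the 71962 strongest peaks of each list, 62.0% of WT peaks were kept and 47.9% of R448Q peaks were gained, and the order of the classes did not change: 95.8% were kept at WT FLAG peaks, 62.7% at other CTCF antibody peaks and 50.4% away from both. A reciprocal overlap of 50% lowered the share kept to 33.9% in all and raised the share gained at WT FLAG peaks to 41.3%. The R448Q peaks are wider, and 6015 of them spanned 2 or more WT peaks, 12.3% of those shared, whereas 727 WT peaks overlapped 2 or more R448Q peaks. Lost peaks often had cohesin nearby: their median distance to the closest R448Q peak was 1893 bp, and 26.2% lay within 500 bp of one. Gained peaks lay a median of 4713 bp from the closest WT peak, in a shorter list. With the 71962 strongest peaks of each list the medians were 4888 bp for gained and 3658 bp for lost peaks, and without the 4 chromosomes 3454 bp for gained and 3764 bp for lost peaks, so the order turned with the chromosomes taken.

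Loss followed the strength of the WT peak. In the strongest decile of WT SMC3 values (6.15 to 44.0), 17 of 7197 peaks were lost, and 99.8% were kept. In the weakest decile (1.41 to 2.47) 62.0% were kept. The difference between classes was large among weak peaks: in the weakest decile 83.3% were kept at WT FLAG peaks, 69.8% at other CTCF antibody peaks and 58.5% away from both. In decile 9 the shares were 98.4%, 95.9% and 96.8%. In the strongest decile 8 of 6807 peaks were lost at WT FLAG peaks, 9 of 326 at other CTCF antibody peaks and 0 of 64 away from both, which allows a share of up to 4.69% (3 counts of the total). Since 6807 of the 7197 strongest WT peaks lie on WT FLAG peaks, class and strength are not separate measures. With WT strength held equal over deciles, WT FLAG peaks were kept 14.5 percentage points more often than peaks away from both, against 27.9 points without it.

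**Figure D3:**
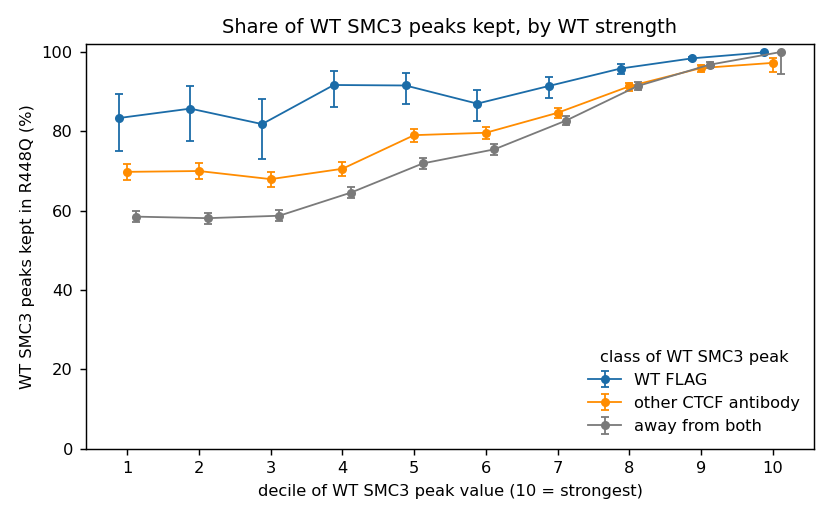
Share of WT SMC3 peaks kept in R448Q, in percent, by decile of WT SMC3 value over the whole WT list, for peaks at WT FLAG (blue), at other CTCF antibody peaks (orange) and away from both (grey); error bars are 95% Wilson intervals over peaks. The classes stand apart at weak peaks, from 58.5% to 83.3% in decile 1, and come together at 97.2% or more in decile 10.

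Gained peaks were weaker than shared ones in the R448Q list, with a median value of 2.87 against 4.27. They made up 68.1% of the list, whose median value was 3.11. The share gained was 90.5% in the weakest decile of R448Q values and 8.46% in the strongest (values of 5.88 or more). Even so, 1300 of the strongest decile were gained: 587 away from both, 507 at other CTCF antibody peaks and 206 at WT FLAG peaks. Gained peaks had a median R448Q value of 4.13 at WT FLAG peaks, 2.98 at other CTCF antibody peaks and 2.85 away from both, while shared R448Q peaks had 9.71, 4.00 and 3.62 in these classes. Without the 4 chromosomes 4.81% of the strongest decile was gained.

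Whether the mutant CTCF was found at a site went with the cohesin there. Of 15392 WT FLAG sites, 3816 or 24.8% had no R448Q FLAG peak, and 12503 had WT SMC3. Among those with WT SMC3, R448Q SMC3 was found at 10180 of 10253 sites with R448Q FLAG, 99.3% (99.1 to 99.4), and at 2063 of 2250 sites without it, 91.7% (90.5 to 92.8). The difference was 7.60 percentage points (Newcombe 95% interval 6.51 to 8.82) and 4.56 points with WT SMC3 strength held equal. Cohesin was thus retained at most WT FLAG sites where no R448Q FLAG peak was called, which does not show that R448Q CTCF was absent there. The gap lay at weak sites: in the lowest decile of WT SMC3 at these sites 94.8% of sites with R448Q FLAG had R448Q SMC3, against 74.9% of those without, and in deciles 9 and 10 all sites of both kinds had it. Without the 4 chromosomes the shares were 99.2% with R448Q FLAG and 90.8% without. A reciprocal overlap of 50% between the FLAG site and the SMC3 peak turned the order round, to 29.9% with R448Q FLAG and 33.6% without.

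At sites where cohesin was kept, its R448Q value was lower where R448Q FLAG was missing, in 10 of 10 deciles of WT SMC3 value. In the lowest decile the median R448Q SMC3 value was 5.40 with R448Q FLAG and 3.62 without it, and in the highest it was 23.9 with and 16.6 without. The ratio of these medians, absent over present, lay between 0.613 and 0.694. WT SMC3 medians differed little, with ratios between 0.943 and 1.00. They were taken over all sites of each decile, also those without R448Q SMC3, so not over the kept sites alone. Without the 4 chromosomes the R448Q ratios lay between 0.656 and 0.728. On the 4 chromosomes they lay between 0.547 and 0.998, the last from a decile with 4 sites without R448Q FLAG. WT FLAG was itself weaker at the sites without R448Q FLAG, with a median WT FLAG value of 4.28 at sites with R448Q FLAG and 2.97 at sites without it, so transgene binding in WT differed too, and its part in the result was not tested.

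**Figure D4:**
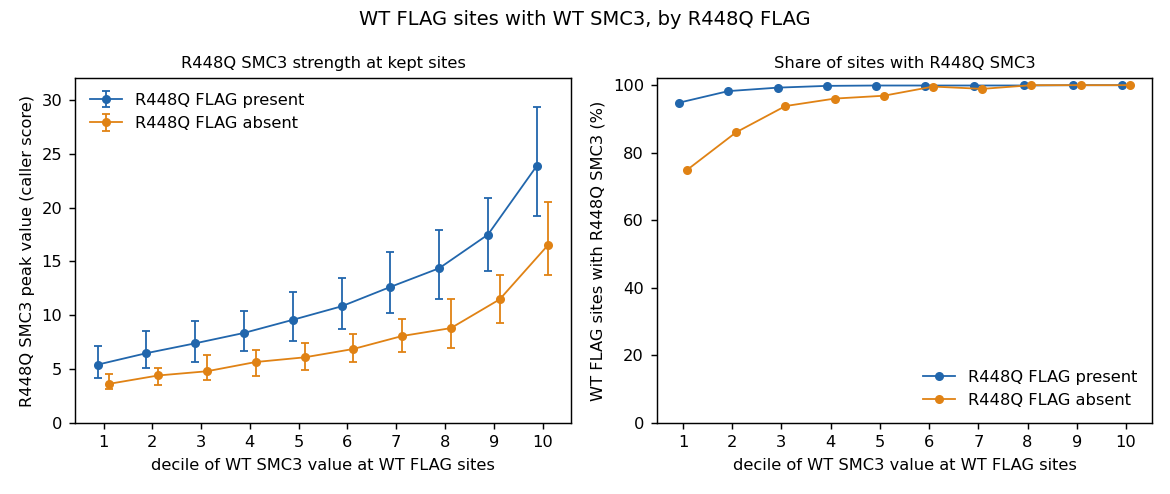
WT FLAG sites with WT SMC3 by decile of their WT SMC3 value, split into sites with (blue) and without (orange) an R448Q FLAG peak. Left, median R448Q SMC3 value (caller score; bars, 25th to 75th percentile of sites) where R448Q SMC3 is present; right, share of sites with R448Q SMC3 in percent. Sites without R448Q FLAG have the lower median in 10 of 10 deciles, and the shares differ mainly in the lowest deciles.

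Gain went with R448Q FLAG at WT FLAG sites that had no cohesin in WT. Of these 2889 sites, 1194 had R448Q SMC3, 41.3% (39.6 to 43.1). It was present at 939 of 1323 sites with R448Q FLAG, 71.0% (68.5 to 73.4), and at 255 of 1566 sites without, 16.3% (14.5 to 18.2). Without the 4 chromosomes these shares were 69.8% and 15.4%. WT FLAG strength was not held equal: its median value was 3.24 at these sites with R448Q FLAG and 2.69 at those without. Counted over R448Q SMC3 peaks instead, the share gained was lower with R448Q FLAG. At WT FLAG peaks 8.03% of 10862 peaks with R448Q FLAG were gained, against 10.3% of 2193 without it. At other CTCF antibody peaks 56.5% of 2778 peaks with R448Q FLAG were gained, against 62.0% of 38588 without it (49.2% and 54.9% without the 4 chromosomes). Away from both 77.2% of 460 were gained with R448Q FLAG, against 78.6% of 98766 without it, a gap within counting error. Within each set of chromosomes the gap was wider. On the 4 chromosomes 80.1% of 412 were gained with R448Q FLAG, against 90.6% of 39476 without it. On the other chromosomes the shares were 52.1% of 48 and 70.6% of 59290.

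R448Q FLAG peaks outside the WT FLAG list were 7875 of 19403, or 40.6%. The R448Q SMC3 list searched at them is also the longer one. R448Q SMC3 was at 3668 of them, 46.6% (45.5 to 47.7), and WT SMC3 at 1550, 19.7% (18.8 to 20.6). Where a CTCF antibody peak was present, 65.9% had R448Q SMC3 and 29.5% WT SMC3. Of the 3052 without an antibody peak, 16.0% had R448Q SMC3 and 4.13% WT SMC3, and 2457 of these sites lie on chromosomes 1, 3, 8 and 11. On the other chromosomes, 54.3% of all the added FLAG sites had R448Q SMC3 and 29.7% had WT SMC3. There the 595 sites without an antibody peak had R448Q SMC3 at 8.74% and WT SMC3 at 7.06%, with overlapping intervals (6.73 to 11.3 in R448Q and 5.26 to 9.40 in WT).

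Outside WT FLAG peaks R448Q FLAG went with kept cohesin as well. At other CTCF antibody peaks 1341 of 1408 WT SMC3 peaks with R448Q FLAG were kept, 95.2% (94.0 to 96.2), against 78.6% (78.1 to 79.2) of 20818 without it. WT SMC3 strength was not held equal in this comparison. Away from both only 122 WT SMC3 peaks had R448Q FLAG, of which 97 were kept, 79.5% (71.5 to 85.7), against 26089 of 37251 without it. On the chromosomes other than the 4, that last share with R448Q FLAG was 23 of 41, 56.1% (41.0 to 70.1), against 66.8% without, so the direction away from CTCF turned with the chromosomes taken.

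Single sites show the range of outcomes, with scores that cannot be compared between lists. The strongest WT peak of all lay nearest to Sestd1, which encodes a spectrin-domain protein (chr2:77341190-77342747), with an SMC3 value of 59.3 in R448Q and 44.0 in WT and a FLAG value of 12.3 in R448Q and 11.2 in WT. The next 2 lay nearest to Lrrc74a, a leucine-rich repeat gene (chr12:86795129-86796870), and within Pink1, a mitochondrial kinase gene (chr4:138319492-138320797), and had SMC3 in all the other 8 mutants as well. All 3 were kept with FLAG in both groups. Kept without R448Q FLAG were peaks near Man2b2, an alpha-mannosidase gene (chr5:36834899-36836903, SMC3 19.6 in R448Q and 26.9 in WT), near Sdr9c7, a dehydrogenase gene (chr10:127944975-127946058, 22.5 in R448Q and 23.5 in WT) and within Upk2, a uroplakin gene (chr9:44453926-44455375, 26.5 in R448Q and 19.8 in WT). These 3 carry strong cohesin in the R448Q list although no R448Q FLAG peak was called. Their WT FLAG values were 2.00, 2.94 and 4.31, far below that of Sestd1.

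The strongest lost peak at a WT FLAG site lay nearest to Naif1, an apoptosis-inducing factor gene (chr2:32488600-32489167), with a WT SMC3 value of 9.76 and FLAG values of 6.33 in R448Q and 2.89 in WT. The next was within Pfdn4, a prefoldin subunit gene (chr2:170510756-170511422, WT SMC3 8.69), also with R448Q FLAG (4.15) and WT FLAG (7.91). The next one with R448Q FLAG was within Ulk4, a pseudokinase gene (chr9:121247911-121248849, WT SMC3 7.08). Peak numbers in the names rise with position, and at these 3 sites the R448Q list skips 11, 3 and 4 numbers. Naif1 and Pfdn4 had SMC3 in 8 of the other 8 mutants and Ulk4 in 7. None of these 3 sites had a CTCF antibody peak, in treated or in untreated WT cells. In all, 1.30% of R448Q numbers and 1.63% of WT numbers are missing, and 1.12% of lost peaks of the 9 weaker deciles fall at a gap, against 3 of the 17 lost in the strongest decile. Whether peaks were removed from the deposited list at these 3 sites cannot be told from it. The strongest losses without R448Q FLAG and without a skipped number were near Mtpap, a mitochondrial poly(A) polymerase gene (chromosome 18, 4369159 to 4369614, WT SMC3 8.55, WT FLAG 3.57), near Gng7, a G-protein gamma subunit gene (chr10:81016639-81017184, WT SMC3 8.26, WT FLAG 3.00), and within Medag (chr5:149392573-149392905, WT SMC3 6.81, WT FLAG 2.00). SMC3 was present there in 3, 5 and 7 of the other 8 mutants, and all had a CTCF antibody peak in treated and in untreated WT cells. Mtpap lies in the first 10 Mb of chromosome 18, where the R448Q lists hold fewer SMC3 and FLAG peaks than the WT lists.

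Gained peaks at WT FLAG sites were led by 3 on the chromosomes with excess peaks. They lay within Cep112, a centrosomal protein gene (chr11:108449016-108451105), Plekhb2, a pleckstrin homology gene (chr1:34867226-34867523), and Bmpr1b, a BMP receptor gene (chr3:141838765-141839629). Their R448Q SMC3 values were 14.6, 13.8 and 12.9. FLAG was 13.6 in R448Q and 3.00 in WT at Cep112, 11.9 in R448Q and 3.22 in WT at Plekhb2, and 13.8 in R448Q and 3.40 in WT at Bmpr1b. At the Cep112 site the WT list skips 1 number.

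Among peaks at other CTCF antibody peaks, the strongest kept were near Csnk2a1, a casein kinase subunit gene (chr2:152197042-152197973, SMC3 33.9 in R448Q and 23.3 in WT), Alkbh1, a dioxygenase gene (chr12:87416477-87417016, 20.5 in R448Q and 15.0 in WT) and Sfxn1, a mitochondrial serine transporter gene (chr13:54113654-54114613, 12.9 in R448Q and 13.0 in WT). None of them had FLAG in either group, and SMC3 was in all 8 other mutants. The strongest lost were near Il17b, a cytokine gene (chromosome 18, 61684865 to 61685395, WT SMC3 8.55), within Medag (chr5:149417160-149417838, 7.89) and near Fntb, a farnesyltransferase subunit gene (chr12:76832826-76832988, 6.55). The strongest gained were within Zfp687, a zinc-finger gene (chr3:94996407-94997828, R448Q SMC3 13.9, R448Q FLAG 5.09), within Nckap5 (chr1:126568136-126569587, 13.2, FLAG 8.70) and near Mrps30, a mitochondrial ribosome gene (chr13:118379068-118379604, 12.3, FLAG 5.53). All 3 of these gained peaks had R448Q FLAG. Over the whole class an R448Q FLAG peak was at 6.15% (5.86 to 6.45) of gained peaks, 7.57% (7.19 to 7.97) of kept peaks and 1.48% (1.17 to 1.88) of lost peaks.

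Away from CTCF the strongest kept peaks were weaker: near Cpz, a carboxypeptidase gene (chr5:35483329-35483808, SMC3 7.13 in R448Q and 9.85 in WT), near Gm6569 (chr15:74004271-74004752, 7.38 in R448Q and 9.36 in WT) and near Igsf21, an immunoglobulin superfamily gene (chr4:140283367-140283779, 9.34 in R448Q and 9.18 in WT). The strongest lost were within Sorcs2, a sortilin-family receptor gene (chr5:36248368-36249621, WT SMC3 5.88), near Id2, an inhibitor of basic helix-loop-helix factors (chr12:25108931-25109286, 5.48), and near Sel1l, a gene of endoplasmic reticulum degradation, 191404 bp away (chr12:92040561-92040723, 5.35). The strongest gained were within Depdc1a (chr3:159495112-159496439, R448Q SMC3 12.7), which has a weak R448Q FLAG peak (2.88), at Ssr3, whose promoter is given near the start (chr3:65391984-65393063, 11.3), and within Kcnj6, a potassium channel gene (chr16:94759193-94760611, 10.4). Depdc1a and Ssr3 had SMC3 in 7 of the other 8 mutants and Kcnj6 in 6. Q418R lacked it at all 3 and R339Q at Kcnj6.

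By location, kept peaks were closer to gene ends than lost ones. Within 1 kb of either end of a gene span lay 22.7% (22.3 to 23.0) of kept peaks, 12.8% (12.3 to 13.3) of lost peaks and 18.2% (17.9 to 18.4) of gained peaks. Gene bodies held 43.5% of kept, 51.5% of lost and 50.3% of gained peaks, and intergenic sequence held 33.8%, 35.7% and 31.5%. The same order was seen within 1 kb of an annotated transcription start, a measure added after seeing the data, with 15.0% of kept, 6.51% of lost and 11.7% of gained peaks. The widest gap was away from both, where 16.2% of kept and 6.09% of lost peaks lay at a start. At WT FLAG peaks the shares were 9.15% of kept and 4.94% of lost. Without chromosomes 1, 3, 8 and 11, 22.7% of kept, 12.8% of lost and 20.2% of gained peaks lay at gene ends.

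The core letters CC-NNN-AG-NN-GGC, searched on both strands of windows from 250 bases before to 50 after a start, occur in 8.61% (8.31 to 8.92) of 32851 promoter windows. They were in 16.9% of 4676 windows with a kept SMC3 peak, 11.5% (8.09 to 16.1) of 243 with a lost peak, 11.1% (10.4 to 11.9) of those with a gained peak and 5.59% of those without SMC3. Among windows with a kept peak, 50.8% (46.5 to 55.0) held them where FLAG was present in both groups, 37.4% (29.4 to 46.2) where only WT FLAG was, and 9.02% where neither FLAG nor a CTCF antibody peak was. Gained peaks with R448Q FLAG only had them in 14 of 51 windows, 27.5% (17.1 to 40.9), and gained peaks without FLAG or antibody peak in 8.84% (8.06 to 9.69). The stricter letters CCA-NN-AG-NN-GGCA were rarer, in 1.39% (1.09 to 1.77) of kept, 2.47% (1.14 to 5.28) of lost and 0.490% (0.347 to 0.691) of gained windows. The lost share rests on 6 of 243 windows, so the order of kept and lost cannot be told from these letters.

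The other 8 mutant lists show which of these changes were seen again. All of these comparisons share the WT list. Of lost peaks, 34.3% were in none of the other 8 mutants and 18.1% were in at least 4. Of kept peaks, 2.63% were in none and 76.8% in at least 4. At WT FLAG peaks 58.3% of kept peaks were in all 8 other mutants and 1.98% of lost ones. Of gained peaks, 38.2% were in none of the other mutants and 16.5% in at least 4. On chromosomes 1, 3, 8 and 11, 49.4% of gained peaks were in none, against 29.3% on the other chromosomes. So the gained peaks of the 4 chromosomes recurred less than those elsewhere, in these lists. Gained peaks at WT FLAG sites were in at least 4 other mutants in 30.0% of cases, against 14.1% of those away from both. Without the Q418R list, whose number of rows equals that of a FLAG list, 34.9% of lost, 2.77% of kept and 38.8% of gained peaks were in none of the other 7 mutants, and 16.9%, 75.5% and 15.7% in at least 4.

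Among the 9 mutants R448Q kept the largest share of WT SMC3 peaks in each class when full lists were used. R342C came next, with 96.6% at WT FLAG peaks, 75.1% at other CTCF antibody peaks and 64.5% away from both. The R448Q list is also the longest. With the 42030 strongest peaks of every list, R448Q kept 64.0% and R342C 65.7% in all, and at WT FLAG peaks R448Q kept 93.8% and R342C 93.6%, so the order of these 2 in all classes together turned with list length. Away from both, H455R (49.4%), R377H (48.5%) and R342C (49.8%) were then above R448Q (48.3%). Without chromosomes 1, 3, 8 and 11 and at equal length, R448Q kept 92.6% and R342C 93.7% at WT FLAG peaks. The other 7 mutants kept between 72.0% (H455R) and 87.1% (K365T) at WT FLAG peaks at equal length. The length of 42030 is that of the Q418R list. Without Q418R the shortest list is that of WT, and with 71962 peaks of each list R448Q kept 62.0% and R342C 62.3% in all, and at WT FLAG peaks R448Q kept 95.8% and R342C 95.04%. With 1 list per mutant no difference between mutants was tested.

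**Figure D5:**
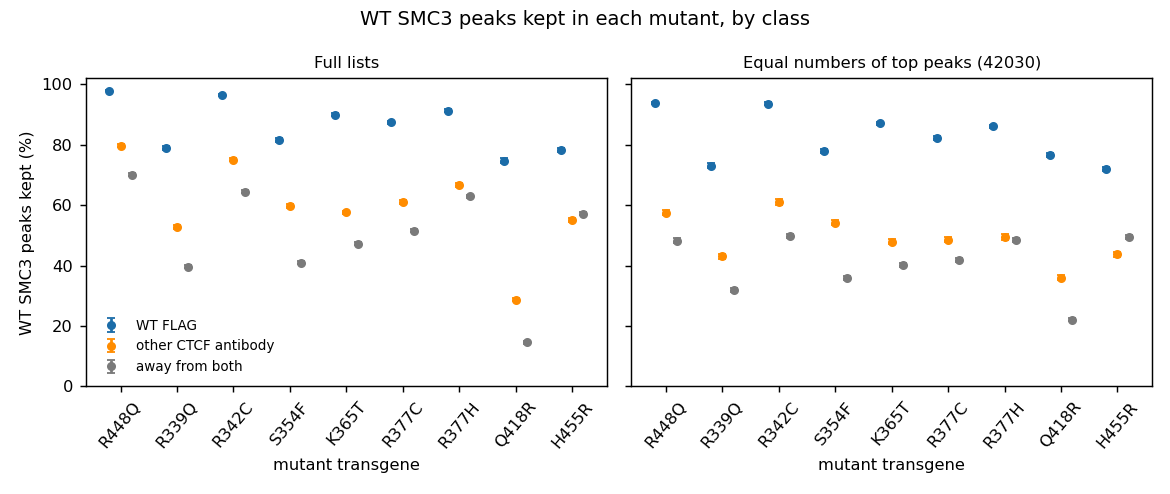
Share of WT SMC3 peaks kept in each of 9 mutants, in percent, at WT FLAG (blue), at other CTCF antibody peaks (orange) and away from both (grey), with full lists (left) and with the 42030 strongest peaks of each list (right); error bars are 95% Wilson intervals over peaks of 1 pooled list per mutant. R448Q is highest in every class with full lists and, with equal numbers, level with R342C at WT FLAG and below it at other CTCF antibody peaks.

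Gene lists were described by counts of peaks within 10 kb of a member's span, beside all genes, for which 78.5% of WT peaks were kept and 67.7% of R448Q peaks were gained. Around 20 pluripotency genes, which hold the naive stem cell state, 265 of 281 WT peaks were kept (94.3%) and 287 of 465 R448Q peaks were gained (61.7%). Lost peaks lay at 7 members: Esrrb lost 5 of 56, Klf4 3 of 16, Klf5 3 of 12, Tbx3 2 of 22, and Dppa3, Fgf4 and Mycn 1 each. Among members named after their values were seen, all 17 WT peaks were kept at Nanog, all 13 at Pou5f1 and all 10 at Sox2. The highest SMC3 value at Sox2 was 22.5 in R448Q and 7.61 in WT, scores that cannot be compared between lists, and Sox2 lies on chromosome 3. Nr5a2 on chromosome 1 had the strongest gained peak (9.80) and 61 gained peaks of 64. Of the 287 gained peaks of this list, 157 lie on chromosomes 1, 3, 8 and 11.

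Around 15 genes of cohesin and its regulators 40 of 61 WT peaks were kept (65.6%) and 78 of 115 R448Q peaks were gained (67.8%). Of the 21 lost peaks, 14 were at Pds5b, a cohesin-associated regulator. It lies between 150 and 160 Mb on chromosome 5, where the WT list holds more SMC3 peaks than that of any mutant. Pds5a lost 3 of 6, Wapl, the releasing factor, 2 of 7, Stag1 1 of 8 and Nipbl, the loader, 1 of 2, and Nipbl had the strongest gained peak (6.47). All 5 WT peaks at Rad21 and all 8 at Smc3 itself, also named after their values were seen, were kept. Around 39 Hox genes, which pattern the body axis, 56 of 63 WT peaks were kept (88.9%) and 92 of 140 R448Q peaks gained (65.7%). Neighbouring members share peaks. Hoxc4 lost 3 of 6 WT peaks, Hoxc5 2 of 5 and Hoxc6 2 of 10. The Hoxb and Hoxd members lost none, and Hoxd11 to Hoxd13 share the strongest gained peak (6.47).

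Around 12 neural regulators 17 of 19 WT peaks were kept (89.5%) and 44 of 57 R448Q peaks gained (77.2%), 28 of them on the 4 chromosomes. Both losses were at Neurog1, a proneural factor, and the strongest gained peak (7.28) at Nes, the nestin gene on chromosome 3. Around 12 mesoderm and endoderm regulators 17 of 30 WT peaks were kept (56.7%) and 32 of 49 R448Q peaks gained (65.3%). Gata6, an endoderm factor, lost 8 of 8 peaks, none above a WT value of 3.88, Gata4 lost 2 of 5, and Foxa2, Eomes and Hand1 lost 1 each. Gata6 lies between 10 and 20 Mb on chromosome 18, with 189 R448Q and 147 WT SMC3 peaks (ratio 1.29). FLAG peaks there were 40 in R448Q and 61 in WT. Eomes had the strongest gained peak of this list (3.88). Within 50 kb the kept share of this list was 78.1%. Around 53 ribosomal protein genes 305 of 333 WT peaks were kept (91.6%) and 314 of 550 R448Q peaks gained (57.1%). The 28 losses were spread over 21 members, with 4 of 10 at Rpl9 and 3 of 13 at Rps14, and Rpl27 on chromosome 11 had the strongest gained peak (6.61).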

How the data were processed

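ChIPmentation with antibodies to SMC3, FLAG and CTCF was done in mouse embryonic stem cells, 2 samples per group. Per the submitters' processing notes, the tools named are Trim Galore, Bowtie2, MACS2 and deepTools, with the mm10 build and no versions. The authors deposited 1 peak list per group, whose names show 2 replicates pooled, with a score in column 5 whose kind is not stated in the deposited files. Here, scores were ranked within a list only, and intervals repeated per summit in FLAG lists were merged with the highest score kept. Peaks were joined by overlap of 1 bp or more (Python with pandas and NumPy, checked with bedtools, which gave the same counts, and tested on simulated lists). Shares have 95% Wilson intervals and differences Newcombe intervals. No test across samples was possible with 1 list per group. Genes were 34610 RefSeq spans (GRCm38.p6), and gene ends were within 1 kb. Starts and letters were read in 32851 promoter windows, with chromosome 18 not analysed here. Named sites are the 3 strongest per class and outcome, by WT score for kept and lost peaks and by R448Q score for gained ones, with the nearest protein-coding gene, plus the 3 strongest at WT FLAG peaks that were kept without R448Q FLAG, lost with it or lost without it, and the 3 strongest gained at R448Q FLAG outside WT FLAG. Gene list members are named where a WT peak was lost or the strongest peak was gained (of the ribosomal protein genes, those with most losses), except for some that are not reported here; other members were chosen after their values were seen. Alternatives changed overlap, strength cut, list length, CTCF list, chromosomes, windows and letters. The members, gene lists and sites were chosen with earlier results of these data known, and the split into chromosomes 1, 3, 8 and 11, the transcription start measure, the gaps at equal list length and the values without Q418R were added after seeing the data.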

Additional observations from a re-analysis of the deposited data

How the results depend on the processing

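Values are given as shares kept in all, at WT FLAG, at other CTCF antibody peaks and away from both, then shares gained in the same order, then R448Q SMC3 at WT FLAG sites with R448Q FLAG, without R448Q FLAG, and at those without WT SMC3. A reciprocal overlap of 50% gave 33.9%, 61.8%, 31.5% and 26.0% kept, 84.1%, 41.3%, 82.8% and 90.3% gained, and 29.9%, 33.6% and 19.9% at FLAG sites, with the order of sites with and without R448Q FLAG turned, and the cause was not tested. A match within 500 bp gave 83.6%, 98.2%, 87.3% and 76.7% kept, 59.9%, 7.91%, 49.4% and 71.1% gained, and 93.0% and 44.2% for the last 2 measures. Midpoints inside the other peak gave 73.3%, 97.1%, 74.3% and 64.8% kept, 77.2%, 22.0%, 74.0% and 85.7% gained, and 99.0%, 90.0% and 39.3%. The upper 50% of each SMC3 list gave 81.3%, 97.3%, 76.8% and 71.0% kept, 65.2%, 10.4%, 66.2% and 81.4% gained, and 99.1% and 88.5% with and without R448Q FLAG. The upper 25% gave 86.6%, 96.0%, 73.9% and 72.0% kept, 61.2%, 13.9%, 75.1% and 87.3% gained, and 98.5%, 82.6% and 38.2%. Equal numbers of the strongest peaks gave 62.0%, 95.8%, 62.7% and 50.4% kept, 47.9%, 6.88%, 45.7% and 62.8% gained, and 98.3%, 84.2% and 33.6%. With the treated CTCF list only, 71.2% were kept away from both, and 60.1% and 77.1% were gained at other CTCF antibody peaks and away from both. Without chromosomes 1, 3, 8 and 11, chosen after seeing the data, the shares were 75.0%, 97.5%, 77.3% and 66.8% kept, 59.5%, 7.37%, 54.6% and 70.6% gained, and 36.6% at sites without WT SMC3.

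The difference in kept share between WT FLAG peaks and peaks away from both was 30.7 points without those chromosomes and 14.5 points with WT strength held equal over deciles, and that between FLAG sites with and without R448Q FLAG was 4.56 points with strength held equal. Within 5 kb of a gene end lay 48.9% of kept, 38.4% of lost and 42.8% of gained peaks, and within 1 kb of a transcription start 15.0%, 6.51% and 11.7%. The stricter letters were in 1.39% of kept, 2.47% of lost, 0.490% of gained and 0.813% of all promoter windows. Within 50 kb, pluripotency genes had 90.2% kept and 66.9% gained, mesoderm and endoderm genes 78.1% kept and ribosomal protein genes 87.3% kept. The median gap to the other list, gained minus lost, was 2820 bp, and at equal numbers it was 1230 bp, or -310.5 bp without chromosomes 1, 3, 8 and 11, and the cause was not tested. Of 139 alternative values, 36 moved by less than the counting interval of the reported value, 1 (the gap) changed sign and the rest moved by more. The turned order of sites with and without R448Q FLAG at 50% reciprocal overlap is not in that count. Differences between shares were entered only without chromosomes 1, 3, 8 and 11 and with strength held equal.

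No paired analysis was possible because each deposited list pools both replicates. Leaving out a replicate was not possible for the same reason. The share of letters inside peaks was not run, since no genome was used here. Depth per library is unknown, so list length and genotype cannot be told apart, and intervals cover counting error only. Scores cannot be compared between lists. Genotype, line and library coincide, and leftover endogenous CTCF was not measured here.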

Other observations

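Peak numbers of whole chromosomes stood away from the WT list in other mutants as well. Against the median over autosomes of the same list, K365T had 2.65 times as many SMC3 peaks relative to WT on chromosome 1, 1.91 times on chromosome 8 and 2.95 times on chromosome 11. R377H had 3.62 times on chromosome 11 (19227 peaks against 3458 in WT), and H455R 3.57 times on chromosome 8 (12151 against 2681). Q418R had 1.58 times on chromosome 1 and 0.233 times on chromosome 6 (1279 against 8746), in a list with as many rows as the Q418R FLAG list. R448Q had 3.02 times on chromosome 1, 2.93 times on chromosome 3, 2.75 times on chromosome 8 and 2.08 times on chromosome 11. All of these share the WT list, in which chromosome 6 is the densest per CTCF antibody peak. The part of chromosome 11 from 40 to 80 Mb held 2777 R448Q, 7345 R377H, 4184 K365T and 1496 WT SMC3 peaks. What these patterns rest on was not tested.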
